A study of Mus musculus with 6 samples.

Results

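The genes described here are amelotin (Amtn) and its relatives among the secretory calcium-binding phosphoproteins, measured in mouse mammary tumours. Of the 9 genes on the list, 8 had a probe set of their own on the array (Amtn, Odam, Ambn, Enam, Ibsp, Dmp1, Mepe and Dspp), out of 19938 genes measured. The expression of the other, Spp1 (osteopontin, of the acidic branch), was not analysed here. The group was chosen by measured values for one gene: Amtn had the largest difference between treatment arms of any gene tested, and the rest were added as its family. The Amtn difference is therefore given as a description, with no test.

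The tumours came from female MMTV-PyMT+ mice of the FVB strain, in which the promoter of mouse mammary tumour virus drives polyoma middle T antigen in mammary epithelium. One group was given DPM at 10 mg/kg by intraperitoneal injection and the other vehicle, in 11 weeks of cycles of 5 days with and 2 days without injections. Dosing started at 4 weeks of age and tumours were taken at 15 weeks, so both groups carried the same oncogene, background and schedule. DPM is read here as dipyridamole, a blocker of nucleoside transport and phosphodiesterases, from knowledge of the study. Each group gave 3 tumours (from arms of 10 DPM and 7 vehicle mice), 1 array per tumour. They are labelled biological replicates, and whether each came from a different mouse is not stated. The question was how RNA levels of these genes differed between tumours grown under DPM and under vehicle.

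Secretory calcium-binding phosphoproteins are secreted proteins that bind calcium and help to form, or to keep soluble, calcium phosphate. Their genes arose by repeated duplication. One branch serves enamel and the epithelium that seals the gum to the tooth (Amtn, Odam, Ambn, Enam), and the acidic branch serves bone and dentin (Ibsp, Dmp1, Mepe, Dspp). The caseins of milk belong to the same family, and in the mammary gland they hold calcium phosphate in micelles.

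The enamel members lie near each other on mouse chromosome 5, and the bases before their starts are shown because they share short stretches, some of which also occur in the acidic branch. The sequences are RefSeq's for build GRCm38.p6, plus strand, the 250 bases before the annotated start. Capitals mark the letters TGATTGGT, which hold an inverted CCAAT box (a promoter element bound by the factor NF-Y), and the letters TTAAAT, which resemble a TATA box, each on either strand. These letters were chosen after the sequences were seen. In Ambn the first capitals are TTAAAT read on the minus strand.
Amtn, chr5:88375858-88376107: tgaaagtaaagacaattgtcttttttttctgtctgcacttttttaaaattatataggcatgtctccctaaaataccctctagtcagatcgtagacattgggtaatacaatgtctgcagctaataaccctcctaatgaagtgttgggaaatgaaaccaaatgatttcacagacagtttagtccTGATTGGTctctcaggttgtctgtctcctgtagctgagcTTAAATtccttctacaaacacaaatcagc
Odam, chr5:87884760-87885009: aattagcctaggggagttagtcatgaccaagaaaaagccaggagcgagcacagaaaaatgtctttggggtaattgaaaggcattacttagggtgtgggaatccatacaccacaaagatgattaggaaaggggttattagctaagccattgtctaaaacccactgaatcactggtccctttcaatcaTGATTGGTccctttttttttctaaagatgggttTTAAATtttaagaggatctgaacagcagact
Ambn, chr5:88455741-88455990: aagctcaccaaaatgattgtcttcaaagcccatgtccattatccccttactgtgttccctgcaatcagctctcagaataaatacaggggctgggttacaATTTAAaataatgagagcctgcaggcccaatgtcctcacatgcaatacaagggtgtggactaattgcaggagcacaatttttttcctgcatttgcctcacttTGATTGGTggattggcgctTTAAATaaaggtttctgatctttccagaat
Enam, chr5:88487725-88487974: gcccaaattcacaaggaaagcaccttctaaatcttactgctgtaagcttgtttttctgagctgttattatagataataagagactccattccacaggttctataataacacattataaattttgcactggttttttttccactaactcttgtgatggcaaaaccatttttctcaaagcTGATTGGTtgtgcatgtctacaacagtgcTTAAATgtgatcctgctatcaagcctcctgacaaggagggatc

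TGATTGGT began at position -68 in Amtn, -64 in Odam, -49 in Ambn and -72 in Enam, where -1 is the base before the start. It occurred in 1.96% of the 32851 promoter windows of the same length in the RefSeq table. It was not confined to the enamel members: of the acidic branch, Spp1 held it at -48 at one of its 2 starts. Ibsp, Mepe, both starts of Dmp1 and the other start of Spp1 had no match to it in this window. TTAAAT began at -29 in Amtn, -31 in Odam, -30 in Ambn and -43 in Enam, and 12.2% of all windows held it. In the acidic branch it lay at -195 in Ibsp, at -195 (minus strand) and -30 at one start of Dmp1, and at -21 (minus strand) and -19 at one start of Spp1, with no match in Mepe or the other starts. The matches are a description of letters and do not show a binding site.

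Amtn, chosen for the largest difference, is set beside its relatives in the plot of the members by array. Its larger difference than theirs follows from that choice. Of the 7 relatives, 5 were dim, with deposited intensities of 28 to 112, where a lower level may not register. Amelotin is secreted by ameloblasts as enamel matures and lies in the basal lamina that binds gum epithelium to the tooth. The deposited intensities of its probe set, 10522934, were 300, 206 and 197 on the DPM arrays (replicates 1 to 3) and 1205, 458 and 922 on the vehicle arrays. All 3 vehicle values lay above all 3 DPM values, although vehicle replicate 2 was less than 2 times DPM replicate 1. After quantile normalisation, which gives all arrays the same distribution, the log2 levels were 8.28, 7.76 and 7.56 under DPM and 10.30, 8.90 and 9.66 under vehicle.

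The Amtn group means were 7.86 ± 0.37 for DPM and 9.62 ± 0.70 for vehicle (log2, SD, n = 3 arrays each). The difference of -1.76 (SE 0.34) put the DPM level at 0.296 times the vehicle level. Levels varied within each group too, and more so under vehicle: 65 of the 14953 genes tested had a larger SD among the vehicle arrays, 765 a larger SD among the DPM arrays, and 20 a larger range over the 6 arrays. The next largest differences of any gene were those of Cnmd, which encodes the cartilage protein chondromodulin, at -1.60 (SE 0.54), and of the microRNA gene Mir140, at -1.49 (SE 0.27). Groups that did not overlap, with DPM lower, were found for 3.48% of genes tested, and Amtn is one of them by the way it was chosen. The gene test (limma with Benjamini-Hochberg adjustment) called 0 of 14953 genes at an adjusted p of 0.05, or 0%, with 578 at an unadjusted p under 0.05 and a smallest adjusted p of 0.676. In bulk tumour RNA, fewer cells that express a gene and less RNA per cell cannot be told apart.

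**Figure D1:**
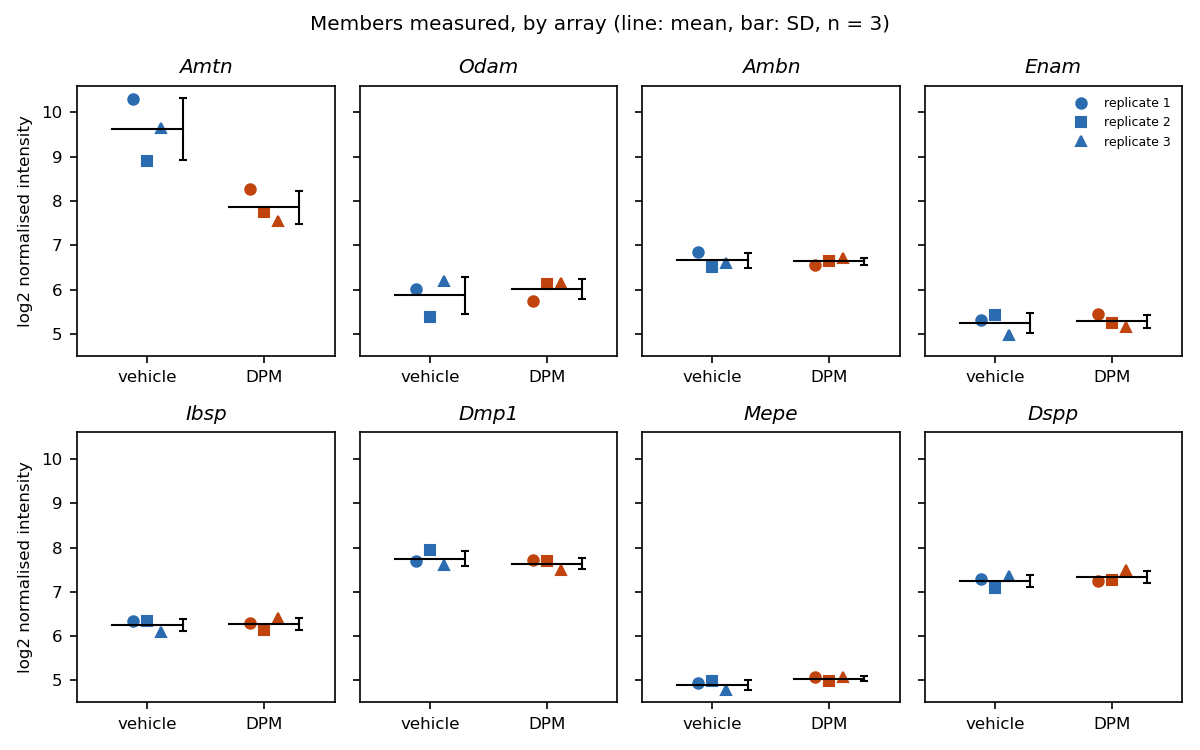
Log2 normalised intensity of the 8 members measured on each array, with 3 vehicle tumours (blue) and 3 DPM tumours (red) per gene; lines are group means, bars SD, and symbols the replicate number. Amtn, chosen for the largest difference, averaged 9.62 in vehicle and 7.86 in DPM tumours without overlap. The groups of the other 7 overlapped, and 5 of these were dim (deposited intensities of 28 to 112). Heights cannot be compared between genes, since probe sets differ in brightness.

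The size of the Amtn difference depended on single arrays. Its direction could not turn when arrays were left out, since every vehicle value lay above every DPM value. It was -1.42 without vehicle replicate 1, the array with the highest Amtn level, and -2.14 without vehicle replicate 2, the lowest of the vehicle arrays. Leaving out both arrays numbered 3, which had the highest deposited upper quartiles (869 and 887, against 717 to 748 on the others), gave -1.54. Without any normalisation between arrays it was -1.80.

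**Figure D2:**
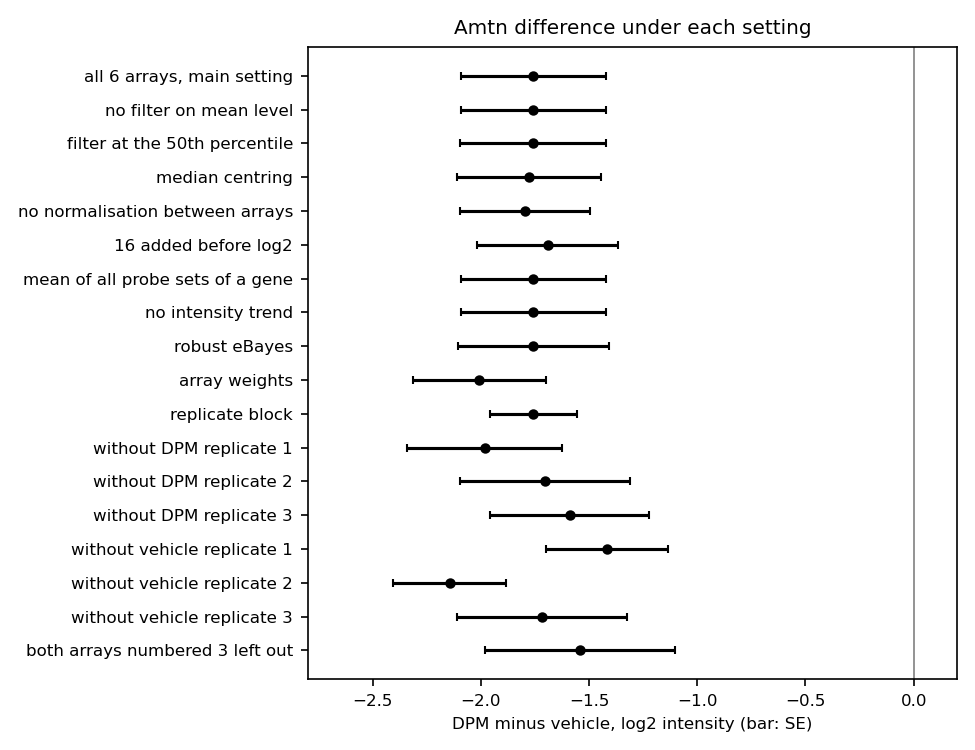
Amtn difference (DPM minus vehicle, log2) with its SE under the main setting and 17 alternatives, one per line. Values run from -2.14 to -1.42, all below 0. With groups that do not overlap, leaving out arrays could not turn the sign.

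The other 3 enamel members had group means within 0.15 log2 units of each other. Odam, the odontogenic ameloblast-associated protein (probe set 10522875), is made by the same cells as amelotin. Its log2 levels were 5.75, 6.14 and 6.16 in DPM and 6.01, 5.39 and 6.21 in vehicle tumours. The difference was 0.15 (95% interval -0.38 to 0.67), with the lowest value of all on vehicle replicate 2.

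Ambn, ameloblastin (probe set 10522946), is an adhesion protein of the enamel matrix. Its levels were 6.56, 6.64 and 6.72 in DPM and 6.85, 6.52 and 6.61 in vehicle tumours, so DPM minus vehicle was -0.017 (95% interval -0.30 to 0.27). Enam, enamelin (probe set 10522961), is the largest enamel matrix protein. Its levels were 5.45, 5.25 and 5.15 in DPM and 5.31, 5.42 and 4.98 in vehicle tumours, so DPM minus vehicle was 0.042 (95% interval -0.34 to 0.42). For both genes the groups overlapped throughout. Odam, Ambn and Enam were all below the filter on mean level, where a probe set may not register a lower level, so these intervals do not bound a fall in RNA.

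Among the bone and dentin members, Ibsp (probe set 10523701) encodes bone sialoprotein, which nucleates mineral and binds integrins. Its levels were 6.29, 6.14 and 6.41 in DPM and 6.34, 6.34 and 6.10 in vehicle tumours, so DPM minus vehicle was 0.018 (95% interval -0.28 to 0.32). Mepe (probe set 10523709), which encodes an inhibitor of mineralisation made by osteocytes, was the member with the lowest intensities, 28 to 35 over the 6 arrays. Its log2 levels were 5.07, 4.98 and 5.07 in DPM and 4.94, 4.98 and 4.78 in vehicle tumours, so DPM minus vehicle was 0.14 (95% interval -0.17 to 0.45). Neither gene separated the groups. Ibsp and Mepe were also below the filter on mean level, so their intervals do not bound a fall in RNA.

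Dmp1, a matrix protein of osteocytes and odontoblasts (probe set 10523693), and Dspp, the precursor of the dentin sialo- and phosphoproteins (probe set 10523683), were bright enough to be tested. Dmp1 levels were 7.71, 7.71 and 7.50 in DPM and 7.71, 7.94 and 7.60 in vehicle tumours. The difference was -0.11 (SE 0.12, 95% interval -0.39 to 0.17, limma adjusted p = 0.99963). Dspp levels were 7.24, 7.27 and 7.48 in DPM and 7.28, 7.09 and 7.35 in vehicle tumours. The difference was 0.093 (SE 0.11, 95% interval -0.17 to 0.36, limma adjusted p = 0.99963). Both differences were smaller than their SE, and the groups overlapped.

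Across the family, 3 of the 8 measured members passed the filter on mean level (the 25th percentile of genes, 7.24 log2): Amtn, Dmp1 and Dspp. Amtn would also have passed on its DPM mean alone. The 5 below it had deposited intensities of 28 to 112, and intervals and p for these come from a fit without the filter. None of the 7 relatives of Amtn was called or had an unadjusted p under 0.05 there, and their limma adjusted p was 1. The groups overlapped for all 7 relatives, where 5.91% of all 19938 genes had groups that did not overlap. Of the 7, 5 had the higher and 2 the lower mean in DPM, with differences of 0.0172 to 0.146 in size against a median of 0.0623 over all genes.

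Photoreceptor genes, whose tissue was not sampled, were listed to show how dim probe sets vary on these arrays. Of 16 with a probe set, 0 had groups that did not overlap, against 5.91% of all 19938 genes, and the largest difference was 0.21 log2. The differences of Amtn's relatives were all smaller than that value, which is the largest of 16 and no test of the relatives. Of the 16 photoreceptor genes, 6 passed the filter on mean level, so passing it does not show expression. No detection calls were used, so none of these genes is called absent.

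Genes beside Amtn on the chromosome were compared by their order in RefSeq's gene table (the plot of neighbouring genes). None of the 5 genes with a probe set on either side of Amtn differed by more than 1 log2 unit. Prol1, the nearest on one side and a salivary mucin-like relative of the family, was at 8.56, 8.74 and 7.60 in DPM and 8.04, 8.31 and 7.89 in vehicle tumours. Ambn lay next on the other side, followed by Enam. Smr2, a submaxillary gland protein gene of the same cluster, was at 6.38, 7.75 and 7.01 in DPM and 9.58, 6.61 and 6.85 in vehicle tumours. Its high value on vehicle replicate 1, where Amtn was also highest, made its difference -0.63 (SE 0.74, limma adjusted p = 0.99963). Csn3, the kappa-casein gene that stabilises milk micelles, was bright and even, at 13.65 ± 0.15 for DPM and 13.60 ± 0.08 for vehicle (mean log2 level ± SD over 3 arrays).

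Jchain, which encodes the joining chain of secreted immunoglobulins and lies 3 genes past Amtn, was below the filter. Its groups did not overlap, at 5.90 ± 0.03 for DPM and 6.15 ± 0.15 for vehicle (mean log2 level ± SD over 3 arrays). In the fit without the filter the difference was -0.25 (SE 0.12, limma adjusted p = 1). Around the bone and dentin members, the 10 genes ran from -0.36 (SE 0.16) for Gbp9, an interferon-inducible guanylate-binding protein gene, to 0.14 for Mepe. Sparcl1, a relative of the gene from which the family is thought to derive, was at 12.13 ± 0.14 in DPM and 12.22 ± 0.06 in vehicle tumours.

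**Figure D3:**
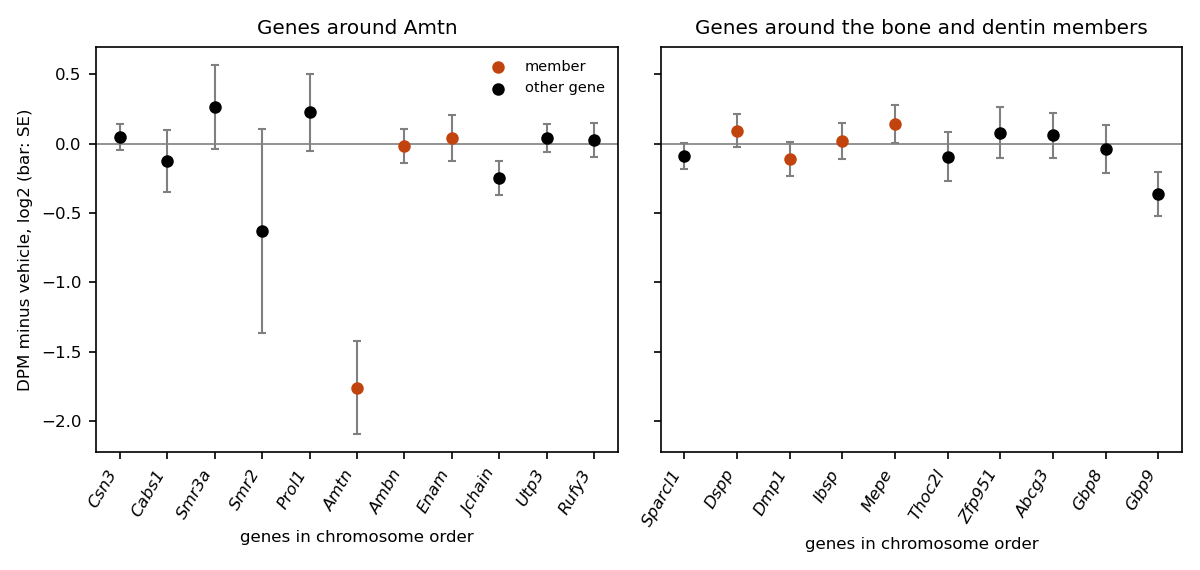
Difference between groups (DPM minus vehicle, log2, bars SE) for the genes around Amtn and around the bone and dentin members, in chromosome order; red points are members. Amtn lies at -1.76 between Prol1 at 0.22 and Ambn at -0.017.

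The genes whose levels over the 6 arrays were most like those of Amtn were Trim30a, Ifit3, Gm4951, Sv2b and Adgrl3. Likeness is the root mean square difference between log2 profiles, each centred on its own mean, so a small value means the same arrays were high and low by a like amount. It was 0.466 for Trim30a, 0.551 for Ifit3, 0.581 for Gm4951, 0.591 for Sv2b and 0.592 for Adgrl3, against a median of 0.998 over the genes tested. The treatment difference of Amtn is part of each of these values.

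Trim30a, which encodes a tripartite motif protein of innate immune cells, was at 9.29, 8.59 and 8.97 in DPM and 10.29, 9.19 and 10.36 in vehicle tumours. Like Amtn it was lowest among vehicle arrays on replicate 2, and unlike Amtn its groups overlapped. Ifit3, an antiviral protein gene induced by interferon, was at 9.57, 8.44 and 9.14 in DPM and 10.21, 10.00 and 10.19 in vehicle tumours, without overlap. Gm4951, a predicted gene, was at 8.43, 7.59 and 7.48 in DPM and 8.78, 8.20 and 8.69 in vehicle tumours, with overlap. Sv2b, a synaptic vesicle protein gene, was at 7.66, 6.78 and 6.93 in DPM and 8.75, 7.45 and 7.36 in vehicle tumours. Adgrl3, an adhesion receptor gene, was at 9.60, 9.25 and 8.23 in DPM and 10.13, 9.09 and 10.07 in vehicle tumours. For Sv2b and Adgrl3 the vehicle values spread widely and the groups overlapped.

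With each profile centred within its treatment group, so that the treatment difference drops out, the root mean square difference from Amtn was 0.259 for Gm4951 and 0.270 for Trim30a. These ranked 33 and 42 among the genes tested. For Ifit3 it was 0.435, rank 3831, against a median of 0.469, so its likeness to Amtn lay mostly between the groups. All of this describes 6 arrays of the same samples.

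**Figure D4:**
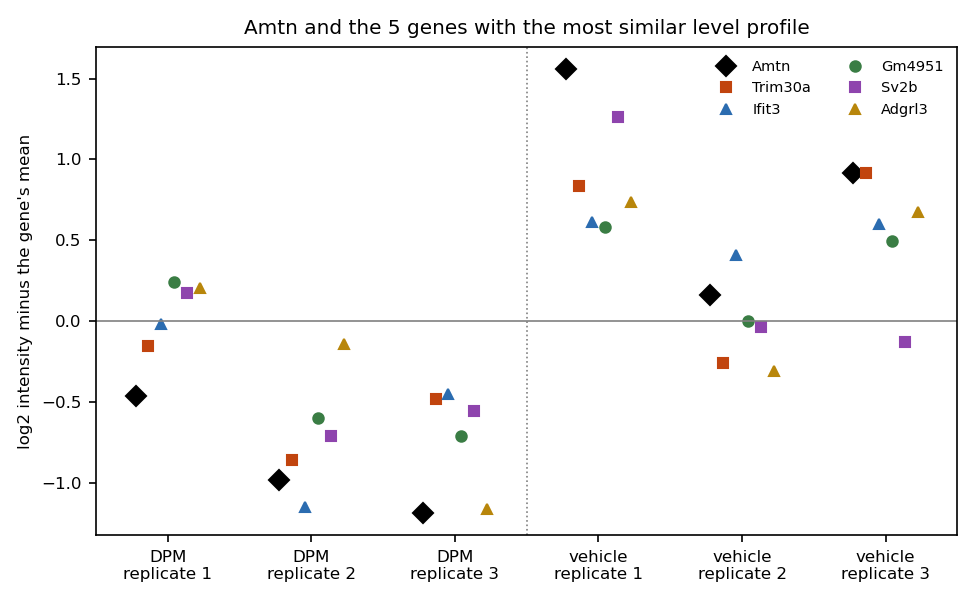
Log2 intensity minus the gene's own mean on each of the 6 arrays, for Amtn (diamonds) and the 5 genes with the most similar profile; the dotted line parts DPM from vehicle arrays. Amtn was highest on vehicle replicate 1 and lowest on DPM replicate 3.

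Enzymes that modify these proteins were compared as a list, since phosphorylation and cleavage decide what the secreted proteins do. The list has 17 genes, mostly of kinases and proteases, with acid phosphatases and a transglutaminase among them. Of these, 14 passed the filter, and 9 had the lower and 5 the higher mean in DPM tumours. The median difference was -0.0879 log2, against 0.000553 over all genes tested, of which 49.7% had the lower mean. Without DPM replicate 3 the list's median was -0.034. None was called. The groups did not overlap for 2 with lower and 2 with higher DPM levels, against 3.48% and 3.49% of all genes tested.

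Fam20c, the secretory pathway kinase that phosphorylates these proteins, was at 9.56, 9.44 and 10.80 in DPM and 9.38, 9.33 and 9.19 in vehicle tumours. The high mean in DPM came chiefly from replicate 3, and the difference was 0.63 (SE 0.32, limma adjusted p = 0.99963). Bmp1, a protease that cleaves Dmp1, Dspp and procollagens, was at 10.43, 10.18 and 10.12 in DPM and 10.73, 10.63 and 10.75 in vehicle tumours. Its difference of -0.46 (SE 0.10, limma adjusted p = 0.904) was 0.727 as a ratio of DPM to vehicle. Ctsk, the collagen-degrading cathepsin of osteoclasts, differed by -0.33 (SE 0.14), without overlap. Mmp2, a gelatinase, differed by -0.33 (SE 0.29), with overlap.

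Cell receptors for the acidic members were mostly lower in mean level. All 11 genes on that list, integrins and Cd44, passed the filter, 9 with the lower and 2 with the higher mean in DPM, at a median difference of -0.117 log2, and none was called. The median was -0.077 without DPM replicate 3 and -0.056 without both arrays numbered 3. Groups did not overlap for 2 of the 11, both lower in DPM, against 3.48% of all genes tested. Itgb3, the beta subunit of the vitronectin receptor that binds the Arg-Gly-Asp motif of bone sialoprotein, was at 9.90, 9.92 and 9.36 in DPM and 10.47, 10.40 and 11.20 in vehicle tumours. Its groups did not overlap, and the difference was -0.97 (SE 0.24, limma adjusted p = 0.949), or 0.512 times the vehicle level. Its partner Itgav differed by -0.32 (SE 0.13), Itga8 by -0.31 (SE 0.18) and Itgb6 by -0.16 (SE 0.14). The groups of these 3 overlapped.

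Genes of mineral deposition and its inhibitors did not lean one way. Of 17 with a probe set, 15 passed, 8 lower and 7 higher in mean, with a median of -0.0231 log2 and none called. The groups did not overlap for 3 with lower and 1 with higher DPM levels, against 3.48% and 3.49% of all genes tested. With the filter at the 50th percentile the median was -0.16. Mgp, the matrix Gla protein that keeps soft tissue from calcifying, was at 9.93, 9.51 and 9.70 in DPM and 10.02, 9.94 and 10.38 in vehicle tumours, 0.758 times the vehicle level. Ank, which exports pyrophosphate and ATP, differed by -0.45 (SE 0.19), and Nt5e, which makes adenosine from AMP outside the cell, by -0.46 (SE 0.28). Stc1, a calcium- and phosphate-regulating hormone gene, had the higher level in DPM, with deposited intensities of 623, 571 and 658 against 493, 458 and 452 on vehicle arrays. On the log2 scale the difference was 0.41 (SE 0.11, limma adjusted p = 0.99963).

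Transcription factors of tooth and bone had 11 lower and 10 higher means among 21 that passed, with a median of -0.0115 log2, or -0.10 without DPM replicate 1. Groups did not overlap for 1 of the 21, Sox9, against 3.48% of all genes tested with the lower DPM level. Sox9, the chondrocyte and progenitor factor, was at 11.91, 11.99 and 11.65 in DPM and 12.42, 12.08 and 12.56 in vehicle tumours, so DPM minus vehicle was -0.50 (SE 0.14) without overlap. Dlx5, a homeobox factor of bone, differed by -0.57 (SE 0.35), Fos by -0.36 (SE 0.38) and Jun, its partner in AP-1, by -0.31 (SE 0.13). None of the 21 was called, and the groups of these last 3 overlapped.

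Other enamel and gum epithelium genes had 7 lower and 6 higher means among 13 that passed, at a median of -0.0185 log2, and none was called. The defining enamel genes Amelx, Odaph and Mmp20 were below the filter. The largest differences were those of Krt17, a stress keratin, at -0.60 (SE 0.39), and Itgb4, the hemidesmosome integrin, at -0.52 (SE 0.23). Wdr72, needed for enamel maturation, followed at 0.26 (SE 0.17), and then Lamb3, a chain of laminin-332, at -0.25 (SE 0.11). Of the 13, Lamb3 alone had groups that did not overlap, against 3.48% of all genes tested with the lower DPM level. Without the filter the median was 0.018.

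Further family genes and relatives, caseins among them, had 6 higher and 5 lower means among 11 that passed, at a median of 0.0234 log2. None was called and none had groups that did not overlap, against 3.48% (lower in DPM) and 3.49% (higher) of all genes tested. The median turned to -0.16 without vehicle replicate 2 and to -0.13 with array weights. Besides Smr2 and Prol1, the calcium-binding matricellular genes Smoc1 and Sparc differed by -0.32 (SE 0.31) and -0.17 (SE 0.13). Both were lowest on DPM replicate 3. The casein gene Csn1s2a had a low value of 9.33 on vehicle replicate 2, against 10.76 to 12.08 on the other arrays, and its groups overlapped.

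**Figure D5:**
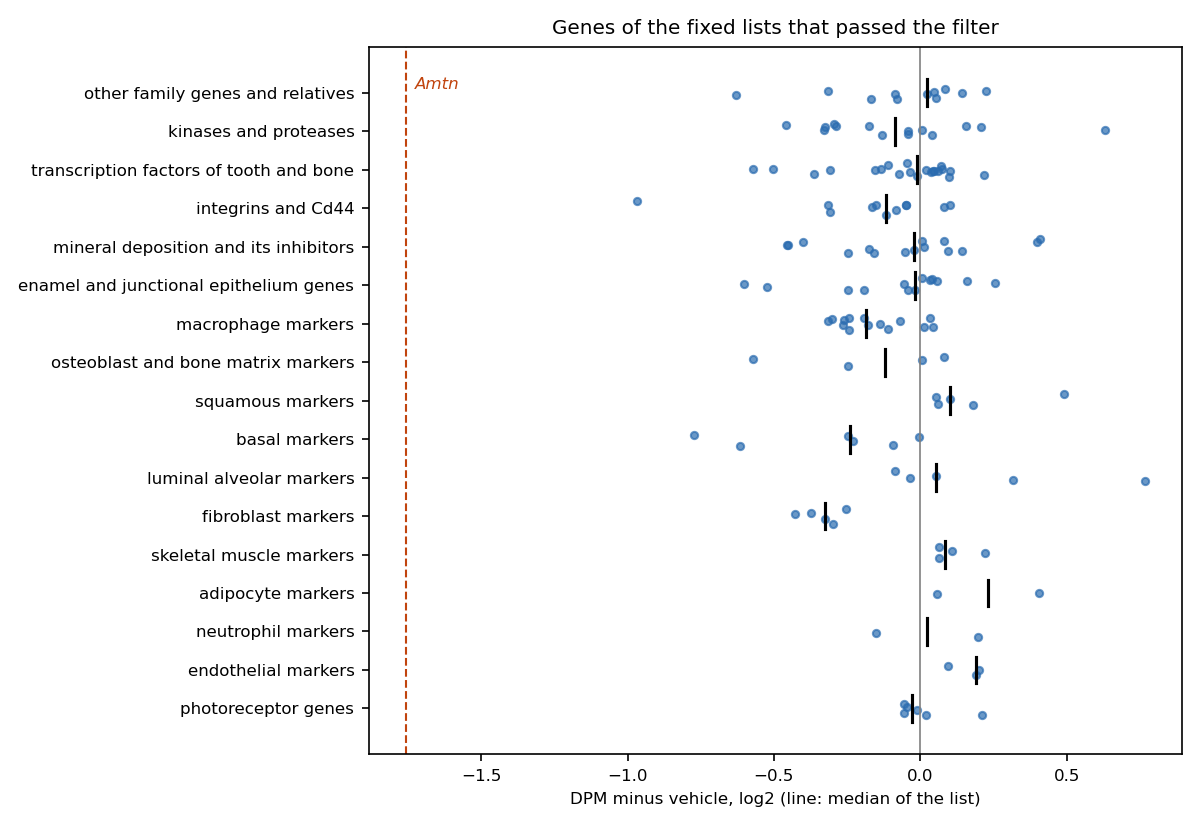
Differences (DPM minus vehicle, log2) of the genes on each list that passed the filter, 1 point per gene with the list's median as a black line; points are spread vertically for clarity. The dashed line marks Amtn at -1.76, beyond every listed gene, and it was chosen for that value.

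Markers of cell types that a mammary tumour can hold differed between the groups to unequal extents. Basal markers had 6 of 6 lower means in DPM tumours. Their summed linear level was 4013 to 5368 on DPM and 6147 to 6754 on vehicle arrays, without overlap. Sums also did not overlap for the transcription factors (21192 to 24807 on DPM, 25481 to 27258 on vehicle arrays). The same held for the integrins and Cd44 (12439 to 13988, 14454 to 16787). It held too for the enamel and gum epithelium genes (13058 to 13594, 14507 to 15314). Linear sums are carried by the brightest genes of a list. The median differences were only -0.0115 log2 for the transcription factors and -0.0185 for the enamel and gum epithelium genes, with means in both directions. How often sums over other genes fail to overlap was not measured. Of the 6 basal genes, 2 had groups that did not overlap, both lower in DPM, against 3.48% of all genes tested. Krt14, the basal keratin, differed by -0.77 (SE 0.15, limma adjusted p = 0.867), its partner Krt5 by -0.62 (SE 0.25) and the contractile gene Acta2 by -0.25 (SE 0.11). The other contractile genes, Cnn1 at -0.092 (SE 0.14) and Myh11 at -0.0036 (SE 0.11), had groups that overlapped. The basal median was -0.24 log2, or -0.15 without both arrays numbered 3. Macrophage markers had 11 of 14 lower means, with sums of 13886 to 18278 on DPM and 16547 to 20299 on vehicle arrays. Their median difference was -0.19 log2, but 0.024 without both arrays numbered 3. Cd14, the lipopolysaccharide co-receptor, differed by -0.31 (SE 0.17), and C1qc, a complement chain made by macrophages, by -0.30 (SE 0.11). Cd14, Ctss (-0.27) and Msr1 (-0.26), all lower in DPM, were on the list but not among the macrophage markers of the written design. Fibroblast markers had 5 of 5 lower, with sums of 3825 to 8404 and 6899 to 8776. The fibroblast median was -0.32 log2, or -0.044 without DPM replicate 3, and the collagen-binding gene Dcn differed by -0.43 (SE 0.51). Of the luminal alveolar markers, which check the tissue label, 3 of 5 had the higher mean, with sums of 32335 to 39052 and 24510 to 37910. The luminal median was 0.053 log2, but -0.15 without vehicle replicate 2. Elf5, the alveolar transcription factor, differed by 0.32 (SE 0.11) without overlap, and Wap, a whey protein gene, by 0.77 (SE 0.32). None of these markers was called.

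Squamous markers had 5 of 5 higher means among those that passed, at a median of 0.0996 log2, but -0.050 without vehicle replicate 1. Sums over 9 genes were 1726 to 4401 on DPM and 1828 to 2267 on vehicle arrays. The highest was on DPM replicate 1, where the cornified envelope gene Sprr1a reached 11.43. Osteoblast markers had 2 of 4 lower among those that passed, with sums over 6 genes of 2727 to 3384 and 3314 to 3915. The 4 skeletal muscle genes had sums of 1448 to 2593 and 1253 to 2464, the 3 adipocyte genes 720 to 2432 and 764 to 1162, the 4 neutrophil genes 666 to 847 and 697 to 777, and the 3 endothelial genes 1756 to 2276 and 1693 to 1830. No marker was at 0 on any array, but the lowest intensity of any probe set was 5 to 7. That no marker was at 0 therefore does not show that a cell type was present. The part of any of these cell types in the Amtn difference was not tested.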

How the data were processed

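RNA from solid, non-necrotic tumour tissue (100 ng per sample) was biotin-labelled for 1-colour Affymetrix arrays, per the labels' protocols. The authors deposited 1 intensity per probe set and array, linear and in whole numbers, for 35556 probe sets on 6 arrays. Background correction, summarisation, scaling and array build are not given in the sources used here. Values under 1 were set to 1, log2 was taken, and the arrays were then quantile-normalised. GEO's platform annotation gave 1 gene for 21789 probe sets, several for 1621 (left out) and none for 12146. Symbols were updated through Entrez identifiers for 21698, and 91 kept the annotation's symbol. A gene's probe set was the one with the highest mean. Each measured member has 1.

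Genes below the 25th percentile of mean level (4985) were left out, and the other 14953 went into a fit across all genes (lmFit and eBayes with trend, limma 3.58.1, R 4.3.3), two-sided, with Benjamini-Hochberg adjustment and a threshold of 0.05. P-values measure the spread between these arrays, whose number limits the precision of every value. The fit was tested on simulated data with the same SD for every gene. SDs on these arrays were unequal, so that run does not show how many changes the fit would miss here. Members and lists were chosen with earlier results of these data known, so lists are described and not tested. Named list genes are the up to 4 with the largest difference that passed the filter. Genes flanking the members are the 5 with a probe set on either side, and the genes most like Amtn are the 5 with the smallest root mean square difference. Csn1s2a, Cnmd, Mir140, Cnn1 and Myh11 were named after their values were seen. Promoters came from RefSeq's table (27025 genes, Dspp not matched). Alternatives were no or a 50th percentile filter, median centring or no normalisation, 16 added before log2, mean of probe sets, eBayes without trend or robust, array weights, the replicate number as a block, each array left out, and both arrays numbered 3 left out.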

Additional observations from a re-analysis of the deposited data

How the results depend on the processing

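Under all 17 alternatives run, the number of genes called was 0 over all genes, among the relatives of Amtn and among the listed genes, with a smallest limma adjusted p of 0.182. Amtn stayed lower in DPM tumours in all 17, from -2.14 to -1.42 log2 with single arrays left out and at -2.01 with array weights. Its groups did not overlap, so leaving out arrays could not turn that sign. Mepe and Dspp kept the higher and Dmp1 the lower mean in DPM in every alternative that retained them. Odam, Ambn, Enam and Ibsp took either sign, within -0.13 to 0.31 log2. With the replicate number as a block, 0 genes were called and Amtn differed by -1.76 (SE 0.20). Deviations of same-numbered arrays correlated at -0.12, 0.11 and 0.37 (replicates 1 to 3), so the numbers were not taken to pair samples. DPM replicate 3 alone correlated best with its own number. The medians of the integrin list (-0.16 to -0.056) and of the list of modifying enzymes (-0.12 to -0.034) stayed below 0 in all 17. So did those of the basal (-0.43 to -0.15), fibroblast (-0.47 to -0.044) and osteoblast markers (-0.41 to -0.0030). The endothelial median stayed above 0 (0.078 to 0.22). The median of the other family genes and relatives took either sign (-0.16 to 0.14). After the data were seen, the 5 genes most like Amtn were found again with median centring and without normalisation, and 4 of the 5 were the same each time.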
